A study of Homo sapiens with 6 samples.

Results

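The narrowest peaks of RNA recovered with an antibody to RBM8A were examined in AGS, an established human gastric adenocarcinoma cell line. They were chosen by their width in the peak lists deposited by the authors: every peak on chromosomes 1 to 22 less than 600 bp wide. There were 772 such narrow peaks among the 5273 peaks on these chromosomes and the 5437 peaks of all sequences, 187 in replicate 1, 366 in replicate 2 and 219 in replicate 3. The other 4501 autosomal peaks, of 600 bp or more, are called wider peaks here.

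RBM8A, also known as Y14, pairs with MAGOH in the core of the exon junction complex, which the spliceosome leaves on an RNA a short way upstream of each new exon-exon junction. The complex travels with the RNA to the cytoplasm, where it takes part in transport, translation and nonsense-mediated decay. Internal exons of human genes are mostly much shorter than the widths considered here, and a peak laid on the genome can also cover intron sequence.

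The series comprised 3 immunoprecipitates with the antibody and 3 inputs, all from untreated wild-type AGS cells. RNA was taken from lysates on beads, and no crosslinking step is described. No sample was made with a control antibody, so nonspecific recovery cannot be told apart from binding, and inputs are not analysed here. All samples carry 1 batch label. Nothing in the labels tells whether replicates came from separate cultures, so the spread over lists may be technical. In such bulk lysates, fewer cells with an RNA and less of it per cell also cannot be told apart. Positions are hg19 coordinates counted from 1, on the basis of the sequence names in the lists, and peaks have no strand. Annotation and sequence of that build were not used here, so peaks are given by position and neither their genes nor their place relative to exon ends are stated. With 3 lists, an exact two-sided sign-flip permutation test of a difference cannot give less than p = 0.25, so no difference below could pass a test, and each is described by its size, its spread and the number of lists that share its direction.

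Narrow peaks were a small part of each list by number and a far smaller one by length. They made up 13% of the autosomal peaks in replicate 1 (exact 95% binomial interval 11.3% to 14.8%), 17.6% in replicate 2 (16.0% to 19.3%) and 12.5% in replicate 3 (11.0% to 14.2%), a mean of 14.4% ± 2.79 (SD, n = 3). Replicate 2 stood above the other two, whose shares were close to each other. These intervals, like those of pileups below, cover counting error only. Together the narrow peaks spanned 93.1, 171 and 106 kb, or 0.977%, 1.57% and 1.06% of the length of all autosomal peaks of their list.

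Each list ended sharply at its own smallest width. That width was 405 bp in replicate 1, 352 bp in replicate 2 and 391 bp in replicate 3. The smallest gap between neighbouring peaks of a list was almost the same number, 406, 353 and 391 bp, so that neither a peak nor a gap shorter than about this length was listed. The settings of the peak caller are not known from the sources used here. Median widths of the narrow peaks were 493, 462 and 478 bp, or 1.22, 1.31 and 1.22 times the smallest width of their list. The limit of 600 bp thus lay at 1.48, 1.70 and 1.53 times the smallest width, furthest from it in replicate 2. With a limit of 1.5 times each list's smallest width, set after the data were seen, the shares were 13.4%, 12.5% and 12.2%, and replicate 2 no longer stood apart.

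**Figure D1:**
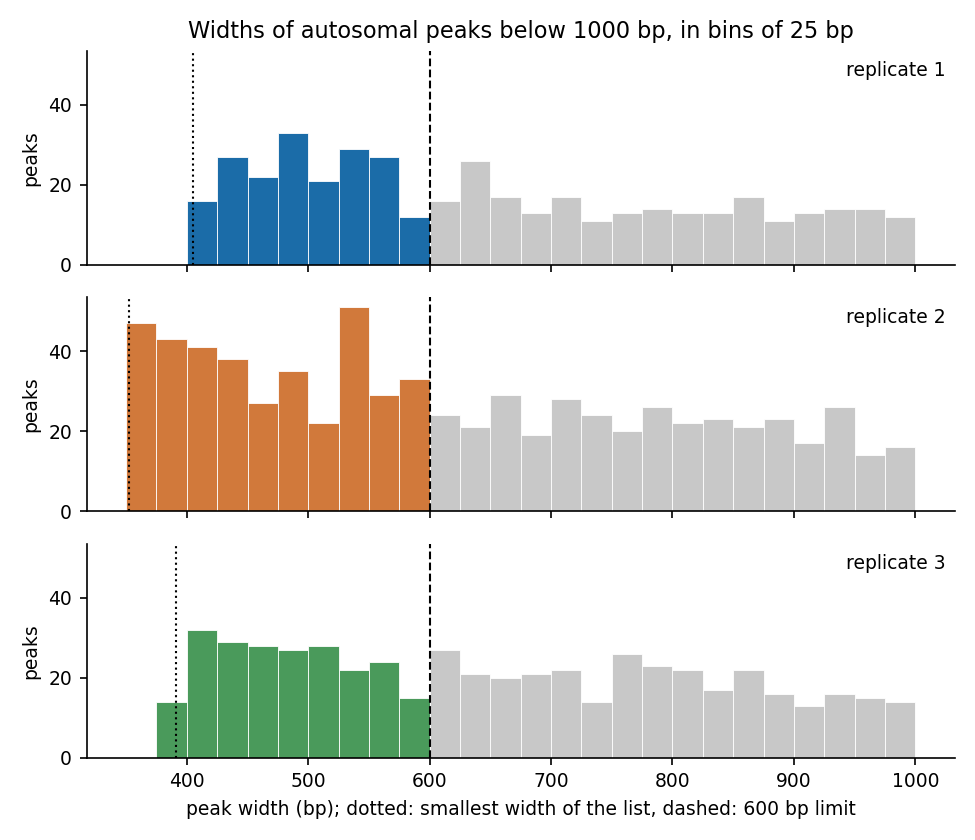
Number of autosomal peaks (vertical axis) by peak width in bp (horizontal axis, bins of 25 bp up to 1000 bp) in each of the 3 lists; coloured bars are peaks under 600 bp, the dotted line is the smallest width of the list and the dashed line the 600 bp limit. The lists begin at 405, 352 and 391 bp, and no break in the counts is seen at 600 bp.

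The widest member and the narrowest non-member of each list differed by at most 2 bp in width. In replicate 1 a member of 598 bp on chromosome 5, from 176081958 to 176082555, had a fold of 3.52 at a pileup of 4 fragments, and a non-member of 600 bp on chromosome 1, from 151955962 to 151956561, had a fold of 2.13 at a pileup of 66. In replicate 2 a member of 599 bp on chromosome 12, from 69212822 to 69213420, had a fold of 4.07 at a pileup of 5, and a non-member of 600 bp on chromosome 17, from 39778097 to 39778696, had 3.57 at a pileup of 4. In replicate 3 a member of 599 bp on chromosome 4, from 174254801 to 174255399, had a fold of 3.55 at a pileup of 8, and a non-member of 601 bp on chromosome 19, from 12848596 to 12849196, had 4.37 at a pileup of 5. At the other end, the narrowest members were on chromosome 1 from 35653025 to 35653429 in replicate 1, with a fold of 3.62 at a pileup of 14, on chromosome 7 from 2769955 to 2770306 in replicate 2, with a fold of 4.16 at 8, and on chromosome 19 from 46192008 to 46192398 in replicate 3, with a fold of 3.02 at 9. The first of these was overlapped in both other lists, the second in neither and the third in 1.

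Few fragments lay under the summit of a narrow peak. The pileup, the number of fragments stacked at the summit, was worked out for all 772 narrow peaks from the deposited fold and p-value. Its median was 5 fragments in replicate 1, 6.5 in replicate 2 and 6 in replicate 3, against 6 in the wider peaks of each list. Counting error alone gives 5 fragments an exact 95% Poisson interval of 1.62 to 11.7, and 6 fragments one of 2.20 to 13.1. A pileup of 4 or 5 was found in 96, 146 and 104 narrow peaks, or 51.3%, 39.9% and 47.5%, and in 41.0%, 39.4% and 41.8% of wider peaks. A pileup of at least 10 was reached by 42 of 187, 89 of 366 and 42 of 219 narrow peaks (22.5%, 24.3% and 19.2%), against a background of 23.7%, 25.5% and 24.4% of all autosomal peaks. In replicates 1 and 2 these shares lay close to the background. Width is set by the same coverage as pileup and fold, so these values describe the narrow peaks and support nothing else.

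Fold enrichment, the authors' ratio of summit pileup to expected level, was a little lower in narrow peaks. Its median was 3.56 in replicate 1, 4.00 in replicate 2 and 3.64 in replicate 3, against 4.22, 4.16 and 3.97 in wider peaks, a difference of -0.38 ± 0.26 (SD, n = 3). The sign was the same in all 3 lists, but the difference was -0.243 without replicate 1 and only -0.043 where −log10 q was 2 or more. A fold of at least 5 was given to 19, 80 and 33 narrow peaks, or 10.2%, 21.9% and 15.1%, against 16.4%, 26.5% and 20.9% of all autosomal peaks. The highest fold of a narrow peak was 8.99, 11.5 and 8.98, while wider peaks reached 54.2, 78.6 and 70.6. Many folds were repeated exactly, since small whole pileups over the lowest expected level give few values. A pileup of 4 over that level, within 0.5%, accounted for 48, 62 and 53 narrow peaks (25.7%, 16.9% and 24.2%), against a background of 19.2%, 19.1% and 20.7% of all autosomal peaks, above it in replicates 1 and 3 and below it in replicate 2.

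Narrow peaks were spread over all autosomes, with chromosome 19 holding more of them than any other. Of the 772, 110 lay on chromosome 19, 96 on chromosome 1, 51 on chromosome 16 and 49 each on chromosomes 2 and 14. A narrow peak was found on 21, 22 and 22 of the 22 autosomes. The fewest were on chromosome 18, with 0, 1 and 3 in replicates 1, 2 and 3, and chromosome 13, with 4, 3 and 2. These counts partly follow where peaks of any width lay. Mean shares of narrow and of wider peaks were 12.3% and 13.7% on chromosome 1, and 6.45% and 5.86% on chromosome 2. They were 6.59% and 5.09% on chromosome 14, 0.548% and 0.528% on chromosome 18, and 1.29% and 2.66% on chromosome 13.

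Chromosome 19 held 29, 55 and 26 narrow peaks, or 15.5%, 15% and 11.9% of each list's narrow peaks. It held 10.4%, 10.1% and 9.48% of the wider peaks and 11.1%, 11.0% and 9.78% of all autosomal peaks. The lowest share among narrow peaks was above the highest among wider peaks. The difference was 4.12 percentage points ± 1.49 (SD, n = 3; higher in 3 of 3 lists, exact sign-flip permutation p = 0.25), and it was smallest, at 2.40 points, in replicate 3. Within single lists the exact binomial intervals overlapped, for example 7.90% to 16.9% of narrow against 8.06% to 11.1% of wider peaks in replicate 3. Between width classes the share was 12.3% ± 4.61 below 450 bp, 16.2% ± 3.03 from 450 bp, 13.2% ± 1.08 from 500 bp, 14.7% ± 6.26 from 550 bp, 13.6% ± 0.753 from 600 to under 1000 bp, 9.38% ± 0.416 from 1000 to under 2000 bp, 10.6% ± 1.60 from 2000 to under 10000 bp and 2.80% ± 1.41 at 10000 bp or more (SD, n = 3). The class from 600 to under 1000 bp thus lay among the narrow ones, and every class from 1000 bp on had a lower mean. With peaks of 10000 bp or more left out of the wider ones, the difference was 3.26 points ± 1.35 (SD, n = 3).

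Chromosome 16 showed a gap of similar steadiness. It held 6.42%, 6.28% and 7.31% of narrow peaks against 3.91%, 4.25% and 4.18% of wider peaks, with no overlap between the groups of lists. Seen from the chromosome, 19.7%, 24.0% and 20% of its peaks were narrow. Chromosome 20 lay on the opposite side, with 4, 17 and 6 narrow peaks, or 2.14%, 4.64% and 2.74%, against 5.74%, 6.46% and 5.42% of wider peaks, again without overlap. Only 5.26%, 13.3% and 6.74% of the peaks of chromosome 20 were narrow. By width class, its share was 5.50% ± 0.940 below 450 bp, 1.14% ± 0.996 from 450 bp and 2.04% ± 2.06 from 500 bp. It was 2.78% ± 0.382 from 550 bp and 5.22% ± 1.21 from 600 to under 1000 bp (SD, n = 3). The low share thus lay from 450 to under 600 bp, while peaks below 450 bp were close to the wider mean of 5.88%. Among the 22 autosomes, the narrow share was higher in every list on 4, lower in every list on 6 and mixed on 12. The 3 chromosomes described here were picked after their values were seen, as those with the largest mean differences. The number and expression of genes on each chromosome were not taken into account.

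**Figure D2:**
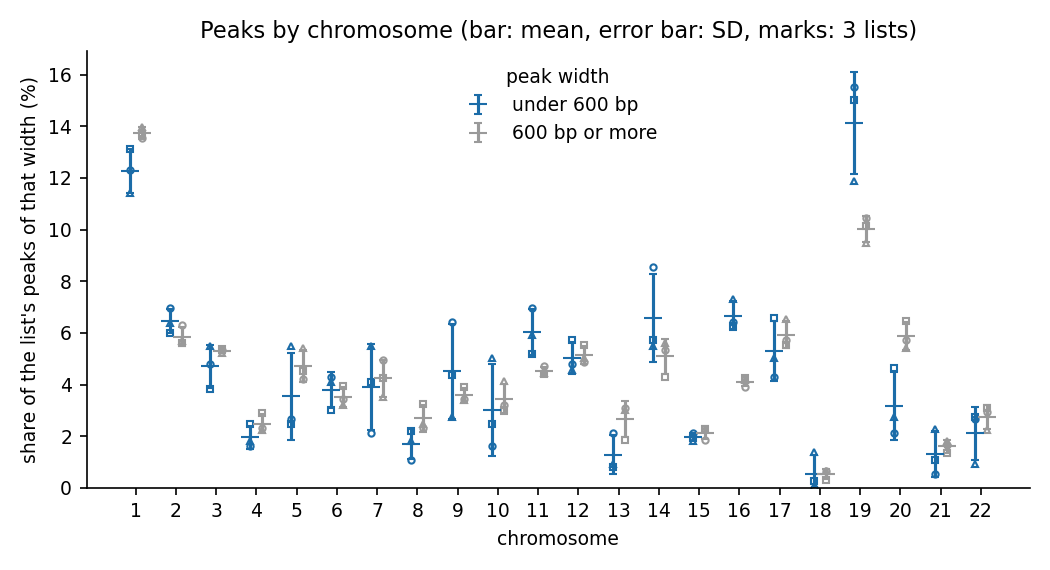
Share of a list's peaks (vertical axis, percent) on each autosome (horizontal axis), for peaks under 600 bp in blue and wider peaks in grey; circles, squares and triangles are replicates 1, 2 and 3, with mean and SD. Chromosomes 16 and 19 have higher shares of narrow than of wider peaks in every list, and chromosome 20 lower ones.

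Summits of narrow peaks lay mostly towards the end with the lower coordinate. The summit position, the distance from that end divided by the width, had a median of 27.5%, 38.7% and 31.5% in replicates 1, 2 and 3. Each peak was divided into a lower, a middle and an upper part, each 33.3% of its width. The lower part held the summit in 104, 172 and 113 narrow peaks, or 55.6%, 47.0% and 51.6%, against a background of 54.8%, 53.3% and 52.5% of all autosomal peaks. The upper part held it in 31, 72 and 28, or 16.6%, 19.7% and 12.8%, against a background of 17.5%, 17.4% and 15.4%. The lower part exceeded the upper by 39.0, 27.3 and 38.8 percentage points, a mean of 35.1 ± 6.70 (SD, n = 3; higher in 3 of 3 lists). Wider peaks leaned the same way by 37.2 points ± 0.457. The lean of narrow minus that of wider peaks was 1.96, -10.4 and 1.95 points, without a common sign. The lean is one of genome coordinates, with no reference to the direction of transcription, and its cause was not tested.

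Besides the lean, narrow peaks had a second group of summits near their centre, as did wider peaks. In steps of 10% of the width, the lowest step held 28.1% ± 3.82 of summits, the steps from 40% to 50% and from 50% to 60% held 12.5% ± 3.45 and 13.3% ± 1.32, and that from 60% to 70% held 3.98% ± 0.380 (SD, n = 3). Wider peaks had 10.9% ± 1.65 and 9.65% ± 0.577 in the same central steps, and 5.01% ± 0.956 from 60% to 70%. The middle part held the summit in 27.8%, 33.3% and 35.6% of narrow and 27.7%, 28.4% and 31.5% of wider peaks. The difference of 3.07 percentage points ± 2.58 had the same sign in 3 of 3 lists, but at 0.136 points it was close to 0 in replicate 1, and it was 0.352 points where −log10 q was 2 or more.

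Where the summit lay varied with the pileup. Among narrow peaks with a pileup of 4 or 5, the middle part held 35.4%, 49.3% and 53.8% of summits and the lower part 47.9%, 41.1% and 39.4%. Among those with a pileup of at least 10, the middle part held 14.3%, 16.9% and 16.7% and the lower part 66.7%, 55.1% and 69.0%. Deep narrow peaks thus had central summits less often in every list. Wider peaks showed the same order, with 45.8% ± 3.92 in the middle part at a pileup of 4 or 5 and 14.9% ± 1.35 at 10 or more (SD, n = 3). In base pairs, 28.9%, 27.0% and 31.5% of narrow peaks had the summit within 50 bp of the lower end and 5.88%, 10.1% and 4.57% within 50 bp of the upper end. Among all autosomal peaks these were 22.3%, 21.8% and 22.9% at the lower and 3.68%, 5.09% and 3.54% at the upper end. In base pairs narrow peaks thus had summits near an end more often in 3 of 3 lists, while as a share of the width they had fewer in the lowest 10%. A distance of 50 bp is a larger share of a narrow peak than of a wider one.

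**Figure D3:**
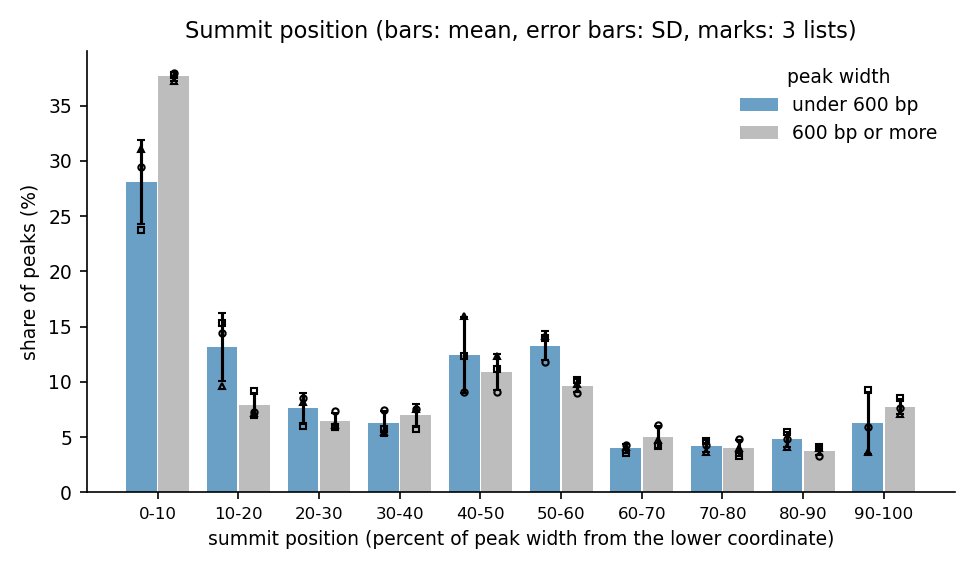
Share of peaks (vertical axis, percent) by summit position in steps of 10% of the peak width from the lower coordinate (horizontal axis), for peaks under 600 bp in blue and wider peaks in grey; bars are means over 3 lists, error bars SD, and circles, squares and triangles replicates 1, 2 and 3. The lowest step is the fullest in both classes, with 28.1% of narrow and 37.6% of wider peaks, and both have a lesser rise at 40% to 60%.

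Narrow peaks stood further from their neighbours than wider ones at the median. The median gap to the nearest other peak of the same list, of any width, was 22543 bp in replicate 1, 17822.5 bp in replicate 2 and 25377 bp in replicate 3. For wider peaks it was 17611, 6761 and 10733 bp. Another peak lay within 10 kb of 76, 165 and 91 narrow peaks, or 40.6%, 45.1% and 41.6%, against a background of 43.7%, 52.4% and 48.2% of all autosomal peaks. The difference from wider peaks was -6.63 percentage points ± 2.82 (SD, n = 3; lower in 3 of 3 lists, exact sign-flip permutation p = 0.25), and -3.25 points when 100 kb was allowed. Isolation was not more common, however: 9.35% ± 0.732 of narrow and 11.4% ± 2.21 of wider peaks had no other peak of their list within 1 Mb. The nearest peak was itself narrow for 17.1%, 21.9% and 14.2% of narrow peaks and for 11.8%, 16.7% and 12.3% of wider ones, higher for narrow peaks in 3 of 3 lists.

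Most narrow peaks were seen in 1 replicate only. Of the narrow peaks, 103 of 187, 260 of 366 and 145 of 219 were overlapped by no peak of either other list, whatever its width. These were 55.1%, 71.0% and 66.2%, against a background of 39.1%, 50.9% and 46.3% of all autosomal peaks. Only 33, 26 and 27 were overlapped in both other lists, which is 17.6% (exact 95% binomial interval 12.5% to 23.9%), 7.10% (4.69% to 10.2%) and 12.3% (8.28% to 17.4%), against a background of 32.3%, 22.4% and 26.4%. In each list the narrow share lay far below that of the wider peaks, of which 34.5%, 25.6% and 28.4% were overlapped in both.

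Taken pair by pair, a narrow peak was overlapped in another list in 31.3%, 18.0% and 23.1% of cases and a wider one in 48.9%, 39.5% and 42.5%. The difference was -17.6, -21.5 and -19.4 percentage points, or -19.5 ± 1.92 (SD, n = 3; lower in 3 of 3 lists, exact sign-flip permutation p = 0.25). A wide peak meets others more easily through its length alone, so a measure based on summits was set beside it. That measure is not free of width either, since the 1 summit of a wide peak can lie anywhere along it. How far width affects it was not tested. A summit within 100 bp of a summit of another list was found for 8.56%, 6.97% and 7.99% of narrow and 13.4%, 10.9% and 11.8% of wider peaks, a difference of -4.20 points ± 0.526 (SD, n = 3). The gap was thus much smaller on this measure, with the same sign and no overlap between narrow and wider values. Summits matched in both other lists for 3, 4 and 3 narrow peaks, or 1.60%, 1.09% and 1.37%, and for 70, 73 and 74 wider peaks, or 5.58%, 4.25% and 4.84%.

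Narrow peaks missing from the other lists lay about as near to peaks of those lists as other missing peaks did. Of the narrow peaks overlapped in neither other list, 43.7%, 36.2% and 45.5% had a peak of another list within 10 kb, against 43.7%, 35.7% and 42.5% of all autosomal peaks without an overlap. Within 100 kb the shares were 71.8%, 60.4% and 75.9% against 69.4%, 62.4% and 69.6%, and within 1 kb 10.7%, 9.23% and 20% against 16.5%, 13.3% and 15.2%. At both of these distances the sign of the difference varied between lists.

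Recurrence rose with pileup in narrow peaks, but far less than in wider ones. At a pileup of 4 or 5, 16.3% ± 4.51 of narrow and 23.9% ± 3.08 of wider peaks were overlapped in another list. At 6 or 7 the shares were 22.8% ± 1.28 and 38% ± 5.99, at 8 or 9 they were 29.0% ± 12.9 and 53.7% ± 9.55, and at 10 or more 40.4% ± 16.2 and 76.0% ± 6.15 (SD, n = 3). In the last class the narrow values were 56.0%, 23.6% and 41.7% in replicates 1, 2 and 3, all below the lowest wider value of 69.9%. Weighted over these classes, narrow peaks recurred less by 14.3, 20.9 and 16.6 points, or -17.3 points ± 3.37 (SD, n = 3). The class of 8 or 9 fragments held only 14 narrow peaks in replicate 1, where its value was 42.9%.

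Matched summits separated narrow from wider peaks only at a pileup of at least 10. There, summits within 100 bp of one in another list were found for 16.8% ± 4.04 of narrow and 29.9% ± 4.04 of wider peaks, and the values of the lists did not overlap. With a pileup of 8 or 9 the shares were 9.10% ± 4.44 and 13.6% ± 3.59, and with 6 or 7 they were 6.70% ± 2.43 and 7.30% ± 0.431. In both of these classes the values of the lists overlapped. With a pileup of 4 or 5 the shares were 3.83% ± 0.747 and 3.19% ± 0.289, within 1 SD of each other. At that depth, 68, 115 and 80 narrow peaks were overlapped in neither other list, or 70.8%, 78.8% and 76.9%, against a background of 61.3%, 67.7% and 66.8% of all autosomal peaks with the same pileups.

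Deep narrow peaks recurred least in replicate 2. Of narrow peaks with a pileup of at least 10, 13 of 42, 9 of 89 and 11 of 42 were overlapped in both other lists. These shares of 31.0%, 10.1% and 26.2% compare with a background of 67.3%, 50.8% and 61.7% of all autosomal peaks of that depth. Conversely 8, 56 and 18 of them, or 19.05%, 62.9% and 42.9%, were overlapped in neither, against a background of 9.36%, 26.5% and 16.4%. The expected level at their summits was 3.36, 3.49 and 2.55 fragments at the median, against 2.51, 2.40 and 2.55 for wider peaks of that depth, so that it was higher in replicates 1 and 2 and the same in replicate 3. The median fold was 3.38, 3.60 and 3.75 in the narrow and 4.09, 4.09 and 3.94 in the wider ones, and 28.6%, 28.1% and 21.4% of the narrow and 18.7%, 23.9% and 25.8% of the wider ones had a fold under 3. Whether the higher expected level has a part in their low recurrence was not tested.

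**Figure D4:**
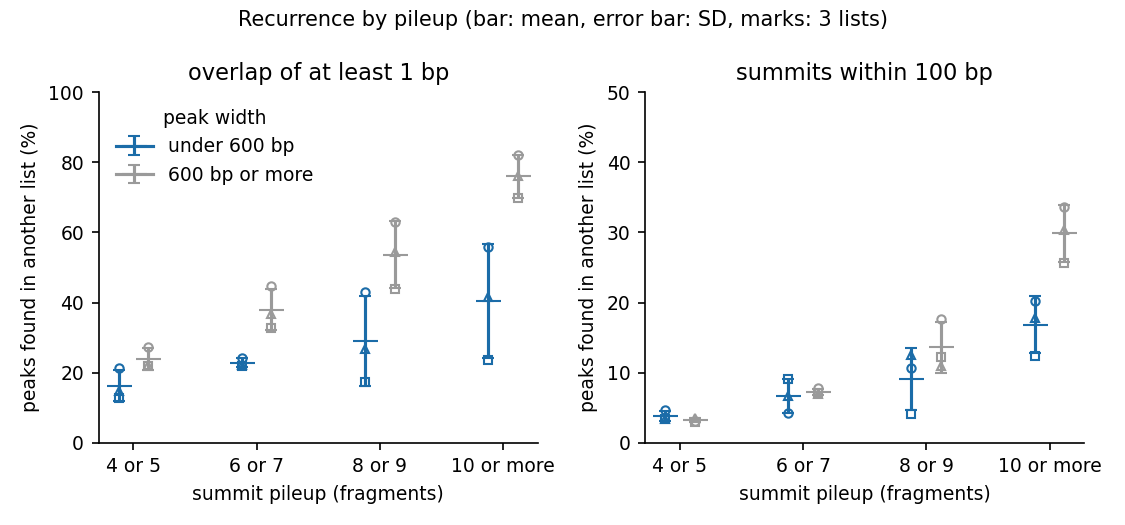
Share of peaks found in another list (vertical axis, percent, mean over both other lists) by summit pileup in fragments (horizontal axis), by an overlap of at least 1 bp on the left and by summits within 100 bp on the right; blue is peaks under 600 bp, grey wider peaks, and circles, squares and triangles are replicates 1, 2 and 3 with mean and SD. At 10 fragments or more, overlap reached 40.4% of narrow and 76.0% of wider peaks.

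When a narrow peak recurred, its widest counterpart was usually a wider peak, but less often than the share of wider peaks in the lists. Over the 6 ordered pairs of lists, narrow peaks met a peak of another list in 350 of 1544 cases. The widest counterpart was under 600 bp in 102 (29.1%), from 600 to under 2000 bp in 156 (44.6%), from 2000 to under 10000 bp in 80 (22.9%) and at least 10000 bp in 12 (3.43%). The narrow peak lay wholly inside a counterpart in 201 cases (57.4%), and the summits were within 100 bp of each other in 118 cases. Median counterpart widths ranged from 719.5 to 927 bp over the pairs.

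Counting narrow counterparts alone, 26, 34 and 27 narrow peaks were overlapped by a narrow peak of at least 1 other list, or 13.9%, 9.29% and 12.3%. The background was 6.32%, 5.66% and 6.35% of all autosomal peaks with a narrow counterpart in at least 1 other list. In the mean of the pairs, 8.29%, 5.33% and 7.31% of narrow peaks and 2.63%, 2.50% and 2.97% of wider peaks met a narrow one, so on this measure narrow peaks were ahead by 4.27 points ± 1.42 (SD, n = 3). Joining the overlapping narrow peaks of all lists gave 726 regions, of which 685 (94.4%) were narrow in 1 list only, 36 in 2 and 5 in all 3.

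Recurrence changed gradually with width, with no step at 600 bp. Overlap in another list was 21.1% ± 7.71 below 450 bp, 19.99% ± 7.23 from 450 bp, 27.2% ± 2.27 from 500 bp, 32.1% ± 10.2 from 550 bp, 35.0% ± 7.38 from 600 bp and 51.8% ± 2.05 at 10000 bp or more (SD, n = 3). Matched summits went from 6.0% ± 0.974 below 450 bp to 10.4% ± 1.57 from 550 bp and 11.1% ± 3.09 from 600 bp. They reached 13.2% ± 0.473 from 1000 bp and 12.3% ± 1.05 from 2000 bp, but only 9.97% ± 0.930 at 10000 bp or more. Within the narrow peaks, both class means from 500 bp on were above both below it on either measure, though the lists varied by up to 10.2 points SD. Median pileups in the 4 narrow classes lay between 5.67 and 6.17 fragments in the mean of the lists. The mean share with a pileup of 4 or 5 fell, from 51.0% below 450 bp to 48.5%, 43.3% and 41.1% in the next classes. Replicate 2 showed no such fall, with 37.9% below 450 bp and 38.7% from 550 bp. Whether depth has a part in the rise of recurrence was not tested. Just inside the limit, from 580 to 599 bp, 4 of 9, 11 of 28 and 5 of 13 peaks were overlapped in at least 1 other list. Just outside it, from 600 to 619 bp, 6 of 14, 5 of 20 and 10 of 19 were.

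**Figure D5:**
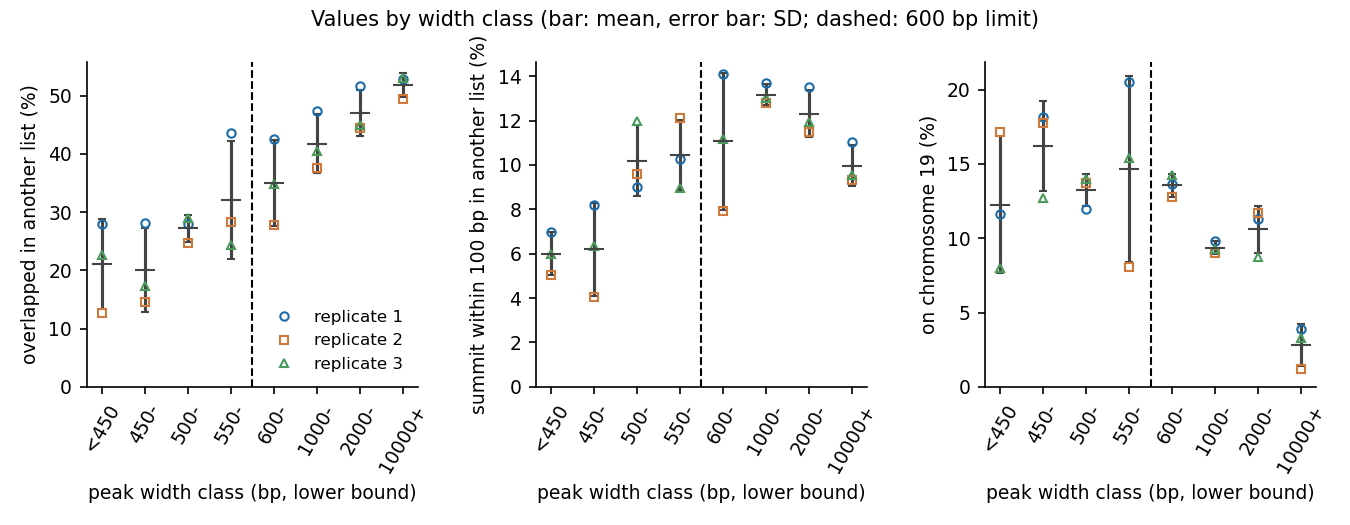
Values by peak width class (horizontal axis, lower bound in bp): share overlapped in another list, share with a summit within 100 bp in another list and share on chromosome 19 (vertical axes, percent); coloured marks are the 3 lists, dark bars mean and SD, and the dashed line is the 600 bp limit. Overlap rose from 21.1% below 450 bp to 51.8% at 10000 bp or more without a step at 600 bp, and the share on chromosome 19 fell to 2.80% in the widest class.

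The 5 places that were narrow in all 3 replicates are given in full, in order of their mean rank by fold. The first was on chromosome 17, where 339 bp from 4903775 to 4904113 were common to all lists. Its widths were 559, 373 and 522 bp, its folds 6.33, 3.69 and 5.30 and its pileups 8, 7 and 7 in replicates 1, 2 and 3. Replicate 2 had the lowest fold and the narrowest peak, and its summit lay at 4904145, near the upper end, while those of replicates 1 and 3 lay at 4903749 and 4903641. The lists thus shared the place but not the summit, with up to 504 bp between summits.

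The second was on chromosome 16, with 528 bp in common from 87426238 to 87426765. Widths were 592, 576 and 528 bp, folds 3.52, 3.57 and 5.82 and pileups 4, 4 and 7. The summits lay within 39 bp of each other and between 43.8% and 51.2% of the width, the closest match of the 5. The nearest other peak of the same list was at least 437736 bp away.

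The third was on chromosome 7, with 472 bp in common from 99056150 to 99056621, folds of 3.97, 4.00 and 3.62 and pileups of 8, 10 and 10. The fourth was on chromosome 15, with 443 bp in common from 72501405 to 72501847, folds of 3.68, 3.79 and 3.61 and pileups of 10, 8 and 8. In both, the summits of replicates 2 and 3 lay within 10 bp of the lower end and that of replicate 1 lay 290 to 322 bp inside the peak. The fold was nearly constant over the lists in both places, at 3.86 ± 0.214 and 3.69 ± 0.0910 (SD, n = 3).

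The fifth was on chromosome 11, with 437 bp in common from 8706599 to 8707035. It was the deepest of the 5, with pileups of 15, 15 and 17 (exact 95% Poisson intervals 8.40 to 24.7 for 15 and 9.90 to 27.2 for 17), but had the lowest folds, 3.03, 3.40 and 3.09. A second narrow peak lay close by in 2 lists, from 8704964 to 8705422 with a pileup of 30 in replicate 1 and from 8704966 to 8705382 with 23 in replicate 3. Replicate 2 also had a peak overlapping this neighbour, but of 600 bp or more. The summits of the neighbour were 20 bp from its lower end in replicates 1 and 3. The gap between the neighbours was 1176 bp in replicate 1 and 1206 bp in replicate 3.

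Narrow peaks of the highest fold in each list are described next. In replicate 1 the top 3 were on chromosome 19 from 6744706 to 6745267 with a fold of 8.99 at a pileup of 12, on chromosome 14 from 105953820 to 105954371 with 7.44 at 21, and on chromosome 22 from 50716595 to 50717051 with 7.09 at 14. The peak on chromosome 14 met peaks of 791 and 693 bp in replicates 2 and 3, which were deeper, with pileups of 36 and 41, but had folds of only 1.94 and 2.06. The other 2 met a wider peak in replicate 2 and none in replicate 3.

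In replicate 2 the highest fold of any narrow peak, 11.5, was on chromosome 14 from 100705622 to 100706166, with a pileup of 24 (95% Poisson interval 15.4 to 35.7). No peak of the other lists overlapped it, and the nearest was 22805 bp away. A peak on chromosome 9 from 136217518 to 136217901, with a fold of 9.09 at a pileup of 35, was likewise overlapped in neither other list. It was not isolated, since peaks of the other lists lay 1237 and 1230 bp from it. A peak of its own list, 1257 bp wide, lay 414 bp away. The third, on chromosome 14 from 39644486 to 39644895, had a fold of 7.86 at a pileup of 10 and was the best matched of the 9. Peaks of 791 and 802 bp in replicates 1 and 3 had folds of 7.0 and 5.94 there, with summits 33 and 8 bp away.

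In replicate 3 none of the top 3 was overlapped in another list. They lay on chromosome 16 from 28411771 to 28412216 with a fold of 8.98 at a pileup of 13, on chromosome 3 from 9486842 to 9487368 with 7.42 at 14, and on chromosome 14 from 103438292 to 103438706 with 7.28 at 10. Peaks of replicates 1 and 2 came within 759 and 600 bp of the first. Of these 9 peaks, 5 had no overlap in any other list and 2 were overlapped in both, which for so few does not set them apart from the shares of all narrow peaks given above.

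Only 3 windows of 1 Mb held at least 2 narrow peaks in every list, among 433 windows with a narrow peak in any list and 34 with one in every list. The fullest was chromosome 14 from 105 to 106 Mb, with 7, 4 and 5 narrow peaks among 14, 14 and 13 peaks of any width. In replicate 1, 6 of the 7 were overlapped in neither other list and 1 in both. In replicate 2 all 4 were overlapped in 1 other list, and in replicate 3, 3 of 5 were, with the other 2 in none. One place returned in replicates 2 and 3, 105932956 to 105933448 with a fold of 4.42 and 105932978 to 105933497 with 4.95, with summits at 105933047 and 105933074. Another returned at 105174260 to 105174776 with a fold of 5.59 and 105174296 to 105174851 with 5.09.

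Chromosome 19 from 10 to 11 Mb held 3, 2 and 2 narrow peaks. One of them spanned 10799278 to 10799829 in replicate 1 and 10799298 to 10799714 in replicate 2, with pileups of 13 and 7 and folds of 5.20 and 4.71. A second spanned 10798284 to 10798679 in replicate 2 and 10798317 to 10798791 in replicate 3, with pileups of 15 and 12 and folds of 3.56 and 3.66. These summits lay between 32 and 54 bp from the lower end in each case. Chromosome 11 from 8 to 9 Mb held 2 in each list, which in replicates 1 and 3 are the neighbours described above.

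The deepest narrow peaks, named after their values were seen, had a high expected level as well. In replicate 1 the deepest was on chromosome 19 from 49469146 to 49469613, with a pileup of 117 over an expected level of 30.9 and a fold of 3.70. The second, on chromosome 2 from 232325660 to 232326070, had a pileup of 62 over 38.1, a fold of 1.61, and was overlapped in both other lists. In replicate 2 the deepest was at the same place on chromosome 19, from 49469098 to 49469660, with a pileup of 153 over 32.0 and a fold of 4.66. No peak of replicate 3 overlapped that place. The second of replicate 2, on chromosome 7 from 5568501 to 5568927, had a pileup of 149 over an expected level of 104, a fold of only 1.43, and no overlap in another list. In replicate 3 the deepest was on chromosome 11 from 118888232 to 118888742, with a pileup of 65 over 29.6 and a fold of 2.16, and it was overlapped in neither other list. The second there, on chromosome 9 from 136215874 to 136216287, had a pileup of 40 over 15.8, a fold of 2.44, and was overlapped in both.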

How the data were processed

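RNA immunoprecipitation and sequencing with an anti-RBM8A antibody in AGS cells gave 1 peak list for each of 3 replicates, called singly. MACS2, HISAT2, SAMtools, FastQC and GATK are named in the submitters' processing notes, without role, version or setting. The deposited lists give the fold, a ratio to an expected level whose background sample is not given, and −log10 p-values and q-values. The notes name hg38, but sequences such as chrUn_gl000220 carry hg19 names. Read totals are not in the lists, so depth is unknown.

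Width was column 3 minus column 2, and summit position column 10 over width. Gaps were measured to the nearest peak of the same list, and overlap needed at least 1 bp. Pileups k were searched up to 400 so that fold = (k + 1) / (expected + 1) and the Poisson tail matched the deposited −log10 p within 0.0005, which succeeded for 99.7%, 99.8% and 99.9% of all peaks. In a check on simulated data, 100% of 400 pileups were recovered, and planted differences in recurrence between lists of 1500 peaks were met within 0.368 percentage points. The planted peaks were exact copies at random positions, so this checks the counting and says nothing of shifted or clustered peaks. Simulated pileups did not reach those of the deepest narrow peaks. Differences were narrow minus wider within a list, with exact two-sided sign-flip permutation over 3 lists.

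Named positions were those narrow in all 3 lists, the 3 of highest fold per list, windows of 1 Mb with at least 2 narrow peaks in every list, and the extremes of width. Members and lists were chosen with earlier results of these data known. Position against exons was planned and not run, since annotation of hg19 was not used. Alternatives were other width limits, a stricter q, other overlaps, other distances, left-out replicates or chromosomes, and all sequences. Computation used scipy 1.17.1, pandas 2.3.3, numpy 2.4.6 and matplotlib 3.10.9 under Python 3.11.15.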

Additional observations from a re-analysis of the deposited data

How the results depend on the processing

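Of 76 recomputed values, 65 stayed within 1 SD of the reported one, 9 moved further and 2 changed sign. The share of narrow peaks was 8.44% with a limit of 500 bp and 19.2% with 700 bp, by construction, and 12.7% to 15.3% without 1 replicate. The chromosome 19 difference was 3.64 to 4.98 percentage points without 1 replicate. The difference in central summits was 0.352 points where −log10 q was 2 or more and 2.12 to 4.54 without 1 replicate, and that within 10 kb was -3.25 points at 100 kb and -8.22 to -5.53 without 1 replicate. The recurrence difference was -22.2 points with a limit of 500 bp, -4.20 for summits within 100 bp, -17.3 within pileup classes, -25.8 above the lowest expected level (chosen after seeing the data) and -19.8 to -18.9 without 1 replicate. It turned to 4.27 when the counterpart also had to be narrow, since this asks for another quantity. The fold difference was -0.043 where −log10 q was 2 or more and -0.496 to -0.243 without 1 replicate, and the pileup difference, -0.167 fragments, ran from -0.5 to 0.25 without 1 replicate. The cause of these changes was not tested where none is given. The limit of 1.5 times the smallest width was added after the data were seen, and kept each value within 1 SD. Not run were the exon positions and their alternative. Pileups of 4 to 6 fragments limit what 1 peak can show. No paired analysis was possible because inputs with the same replicate numbers are not analysed here. The differences between narrow and wider peaks were themselves taken within each list.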

Other observations

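Outside the autosomes there were few peaks of any width, 39, 72 and 53 in replicates 1, 2 and 3. Of these, 7, 10 and 6 were under 600 bp. Chromosome X held 5, 6 and 4 peaks under 600 bp among its 22, 49 and 36 peaks. Chromosome Y held 0, and unplaced or alternate sequences held 2, 4 and 2. Of the autosomal narrow peaks, 18, 30 and 24 reached a −log10 q of at least 5, or 9.63%, 8.20% and 10.96%, against 13.7%, 16.8% and 17.5% of wider peaks.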
